A study of Mus musculus with 10 samples.

Results

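A set of 9 markers of reserve and regenerative stem cells was followed in crypt RNA of the mouse jejunum. They were Bmi1, Hopx, Lrig1, Tert, Mex3a and Msi1, which are used as markers of slowly cycling or reserve stem cells, and Clu, Ly6a and Anxa1, which mark the regenerating or fetal-like epithelium. The 9 genes were chosen by symbol, with no threshold on their levels, and matched to Ensembl identifiers among 54838 genes listed for each library. All 9 were among the 14719 genes with enough reads to be tested. Each of 10 libraries came from the crypts of 1 mouse, 5 of them WT and 5 Arid3a cKO. The cKO animals carried VillinCre-ERT2+/- with Arid3a fl/fl, so that tamoxifen deletes Arid3a in intestinal epithelial cells and not in the stroma or in immune cells. Both genotypes received tamoxifen for 3 days and were collected 1 month after the first injection, without irradiation. The alleles carried by the WT animals and the ages of the mice are not given in the sources used here. The irradiated tissues of the study were not analysed here, so these values describe the markers before injury.

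The crypt base columnar stem cell, which expresses Lgr5, divides daily and maintains the intestinal epithelium. Cells above it, around the +4 position, were described as a reserve that can replace it, although most of their markers are also transcribed in the Lgr5+ cell and in early progenitors. After injury the epithelium passes through a state that resembles the fetal intestine, in which Ly6a (its protein is SCA1), Anxa1 and Clu are switched on and the usual stem cell genes are turned down.

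Library depth, as the total of the deposited expected counts, ranged from 27050455 to 28152743 for WT animals and from 28314069 to 31053622 for cKO animals, which left every cKO library deeper than every WT library. Arid3a itself had a WT level of 2.42 ± 0.397 CPM and a cKO level of 0.673 ± 0.350 CPM (SD, n = 5 each; log2 fold change −1.84 ± 0.316 SE, adjusted p = 0.00204), with no overlap between the genotypes. Olfm4, which marks the crypt base, was abundant in both at 5778 ± 1141 and 4077 ± 688 CPM, as the label of crypt tissue implies. RNA of mature enterocytes was present too. The summed level of 9 enterocyte markers was 1684 to 7578 CPM in WT and 9498 to 17032 CPM in cKO libraries. CPM is the count relative to the TMM-scaled size of the library. Adjusted p-values come from the quasi-likelihood test of edgeR, corrected by Benjamini-Hochberg over all tested genes and called below 0.05. The identifiers of the animals fell into 6 stems, none of them shared by the genotypes, and what a stem stands for is not given in the sources used here, so that genotype and whatever the stems mark cannot be told apart. In bulk RNA, fewer cells of a type and less RNA per cell cannot be told apart either.

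Of the 9 markers, 2 fell in cKO crypts, namely Mex3a and Msi1, and 0 rose. Over all tested genes, 28.3% passed the same test, 12.7% lower and 15.6% higher in the cKO. Without adjustment, 5 of the 9 markers had a p below 0.05, all of them lower in the cKO, beside 40.5% of all tested genes in either direction and 20.1% lower. The sign of the fitted difference was negative for 7 of 9, and the median log2 fold change of the 9 was −0.36, beside −0.03 for all tested genes. The CPM ranges of WT and cKO animals overlapped for each of the 9 markers (0 of 9 without overlap, against 19.6% of all tested genes and 7.63% lower in every cKO animal).

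**Figure D1:**
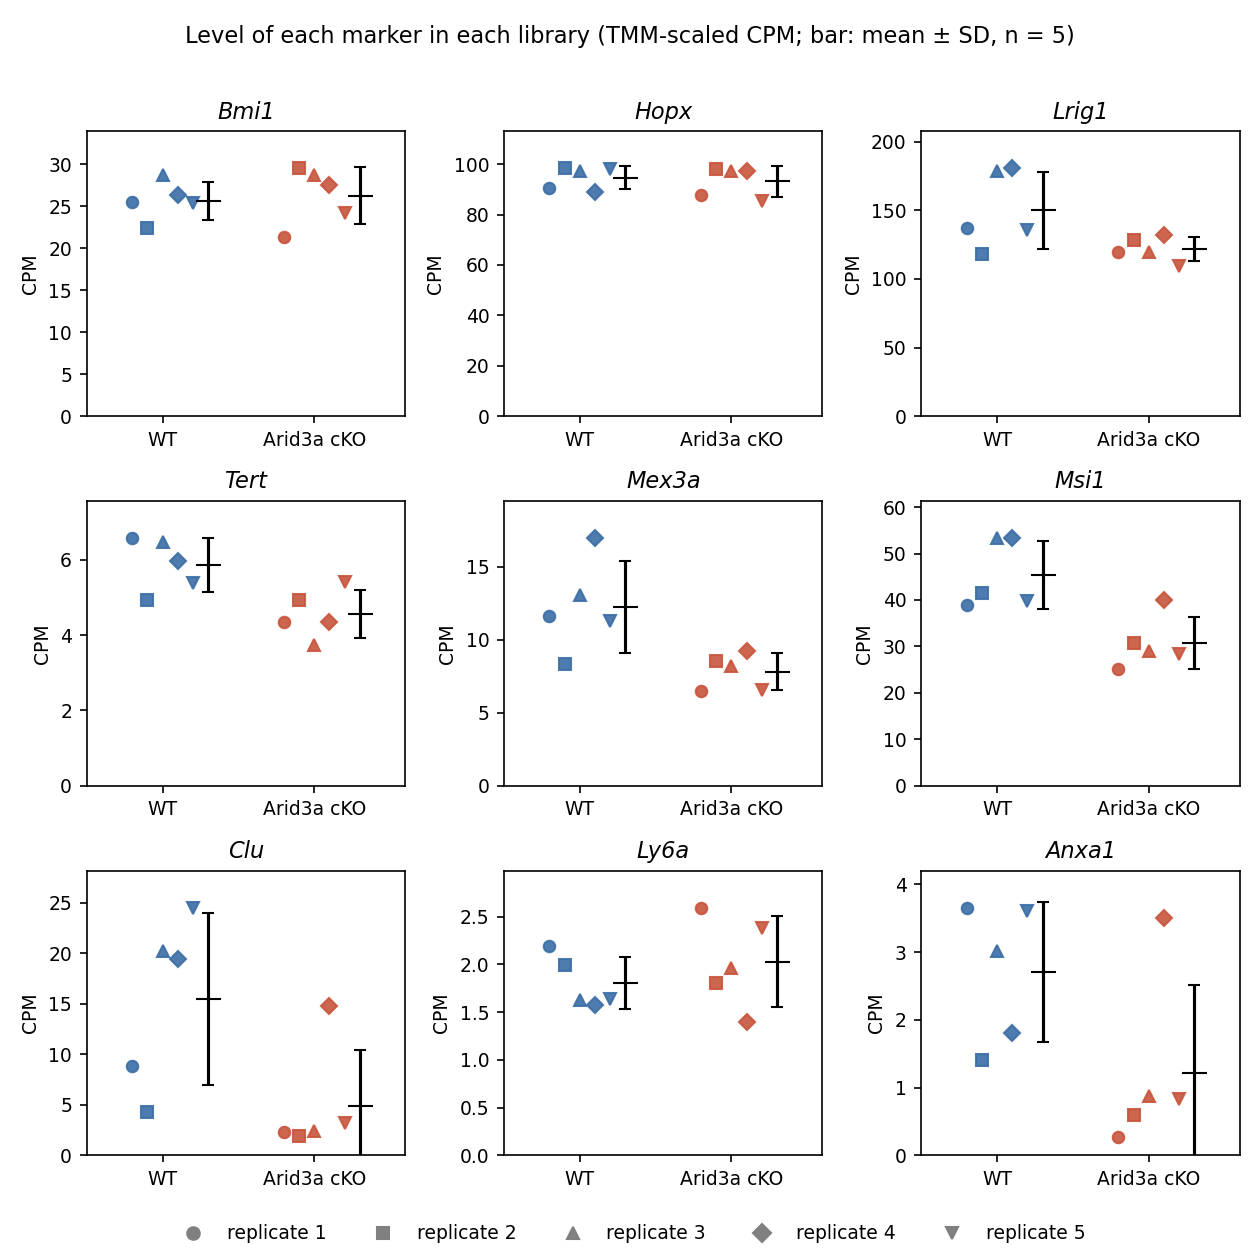
Level of the 9 markers in each library. The y axis gives TMM-scaled CPM from 0, each point is 1 animal with its replicate number as the symbol, and bars are the mean ± SD of 5 animals, cut at 0 where the SD exceeds the mean. Mex3a and Msi1 lay lower in most cKO animals, and cKO replicate 4 stood above the other cKO animals in Clu and Anxa1.

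Per unit of transcript length the markers spanned a wide range of levels. In the TPM values deposited by the authors, Hopx was the most abundant in WT crypts at 118 ± 4.21 TPM, followed by Lrig1 at 45.8 ± 7.13, Msi1 at 30.5 ± 7.01, Bmi1 at 15.7 ± 2.05 and Clu at 12.7 ± 6.34 TPM (SD, n = 5). Ly6a at 3.22 ± 0.551, Mex3a at 2.81 ± 0.868, Anxa1 at 2.56 ± 0.614 and Tert at 1.96 ± 0.221 TPM formed the low end. Of the 8 pairs of neighbours in this order, Hopx and Lrig1, and Msi1 and Bmi1, had WT ranges without overlap. Within single libraries Lrig1 was also above Msi1 and Clu above Ly6a in all 5 WT animals, while the other 4 pairs changed places between WT animals. In cKO crypts the means kept the order down to Mex3a, while Tert and Anxa1 exchanged places. The cKO levels were 109 ± 8.84 TPM for Hopx, 35.0 ± 1.94 for Lrig1, 18.9 ± 3.75 for Msi1 and 14.3 ± 1.76 for Bmi1. Below these stood Clu at 4.07 ± 4.66, Ly6a at 3.40 ± 0.726, Mex3a at 1.66 ± 0.300, Tert at 1.41 ± 0.228 and Anxa1 at 1.10 ± 1.03 TPM. Hopx, Lrig1, Msi1 and Bmi1 had at least 633 counts in every library, while Ly6a and Anxa1 rested on 41 to 77 and 8 to 105 counts per library.

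**Figure D2:**
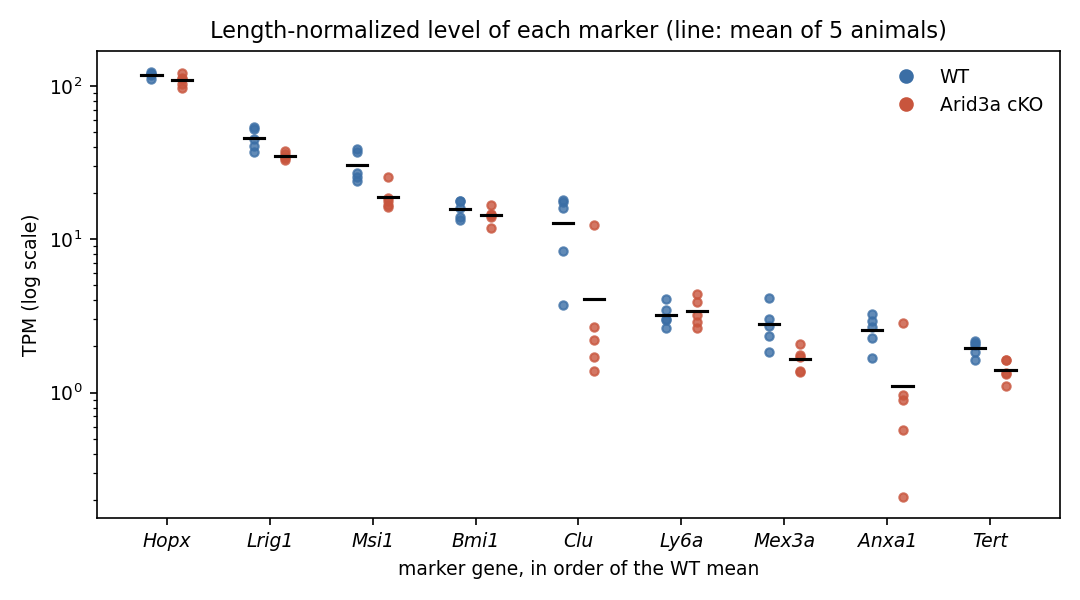
Deposited TPM of the 9 markers on a log scale, ordered by the WT mean. Points are animals and lines the mean of 5. Hopx stood highest in both genotypes, and the 5 Clu values of each genotype spread widely.

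Bmi1 and Hopx, the markers most often used for the +4 position, did not differ beyond the spread between animals. Bmi1 (chr2:18677018-18686629 on GRCm38, plus strand) encodes a component of Polycomb repressive complex 1, which silences genes through histone H2A ubiquitination. In WT crypts it measured 25.6, 22.4, 28.7, 26.3 and 25.3 CPM in replicates 1 to 5, and in cKO crypts 21.3, 29.5, 28.7, 27.5 and 24.2 CPM. The cKO values lay on both sides of the WT values, and the log2 fold change was 0.03 ± 0.0987 (SE, adjusted p = 0.826, 95% interval −0.16 to 0.23). Its sign turned negative in 6 of 22 alternative fits, among them those in which libraries were scaled by their total only (−0.10) or TPM was used (−0.14 with a pseudocount of 0.1).

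Hopx (chr5:77086988-77115121, minus strand) encodes a small homeodomain protein that does not bind DNA. Its level was 90.4, 98.3, 97.4, 89.0 and 98.1 CPM in WT and 87.8, 98.0, 97.4, 97.5 and 85.4 CPM in cKO crypts. The ranges of the genotypes almost coincided, with a log2 fold change of −0.02 ± 0.0630 (SE, adjusted p = 0.821, 95% interval −0.15 to 0.10), whose sign turned when WT replicate 5, cKO replicate 1 or cKO replicate 5 was left out. Hopx varied less between animals than most genes: its biological coefficient of variation of 8.96% exceeded that of 4.81% of tested genes, beside a median of 13.9%. The antisense gene Hopxos overlaps Hopx and held 20.4 to 42.0 counts per library against 2257 to 2869 for Hopx, and since the strand setting of the counting is not given, reads of the pair cannot be told apart.

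Lrig1 (chr6:94604529-94700158, minus strand), a transmembrane protein that restrains ERBB receptor signalling, was 137, 118, 179, 181 and 136 CPM in WT and 120, 129, 120, 132 and 109 CPM in cKO crypts. WT replicates 3 and 4 stood far above every other library, WT replicates 1 and 5 just above the highest cKO animal, and WT replicate 2 inside the cKO range. The difference of −0.30 ± 0.114 (log2, SE) missed the threshold at an adjusted p of 0.0669, and the exact permutation test over the 252 assignments of 5 of 10 libraries gave an unadjusted p = 0.0556 (two-sided, smallest possible 0.00794). It passed, among other alternatives, when WT replicate 2 was left out (−0.37, adjusted p = 0.0167, where 14.1% of tested genes were called lower) or when libraries were scaled by their total only (−0.43, adjusted p = 0.0182, with 27.4% called lower). Slc25a26 overlaps Lrig1 on the opposite strand, with 222 to 315 counts per library beside 2891 to 5391 for Lrig1.

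Tert (chr13:73626911-73649843, plus strand), the catalytic subunit of telomerase, had the lowest mean TPM of the 9 in WT crypts, with a range that overlapped that of Anxa1, and 107 to 191 counts per library. It measured 6.58, 4.92, 6.48, 5.96 and 5.38 CPM in WT and 4.35, 4.94, 3.74, 4.35 and 5.41 CPM in cKO crypts. The 3 WT animals of replicates 1, 3 and 4 lay above all cKO animals, while WT replicates 2 and 5 fell inside the cKO range. The log2 fold change was −0.36 ± 0.134 (SE, adjusted p = 0.0600, exact permutation p = 0.0397 before adjustment). The call depended on single animals: without WT replicate 2 the adjusted p was 0.0356, and without cKO replicate 5 it was 0.0486, where 8.68% of tested genes were called lower.

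Mex3a and Msi1 both encode RNA-binding proteins. Mex3a (chr3:88532395-88541396, plus strand), found in a slowly dividing subset of Lgr5+ cells, was 11.6, 8.33, 13.1, 16.9 and 11.2 CPM in WT and 6.47, 8.55, 8.22, 9.25 and 6.55 CPM in cKO crypts. In Mex3a, 4 WT animals lay above all cKO animals, and WT replicate 2 lay among the cKO values. Mex3a fell by 0.65 on the log2 scale (SE 0.172, adjusted p = 0.0157, exact permutation p = 0.0238 before adjustment), which is a WT level 1.57 times that of the cKO.

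Msi1 (chr5:115429599-115455698, plus strand), Musashi, is a translational regulator of neural and intestinal progenitors. Its level was 39.0, 41.4, 53.3, 53.3 and 39.9 CPM in WT and 25.2, 30.7, 29.0, 40.1 and 28.5 CPM in cKO crypts. In 4 cKO animals Msi1 was below every WT animal, and cKO replicate 4 reached the lower WT values. Msi1 fell by 0.56 on the log2 scale (SE 0.133, adjusted p = 0.00936, exact permutation p = 0.0238 before adjustment), a WT level 1.48 times that of the cKO. Both falls passed the threshold in each of 22 alternative fits, with log2 fold changes of −0.78 to −0.49 for Mex3a (adjusted p 0.00322 to 0.0419) and of −0.69 to −0.50 for Msi1 (adjusted p 0.000833 to 0.0249).

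**Figure D3:**
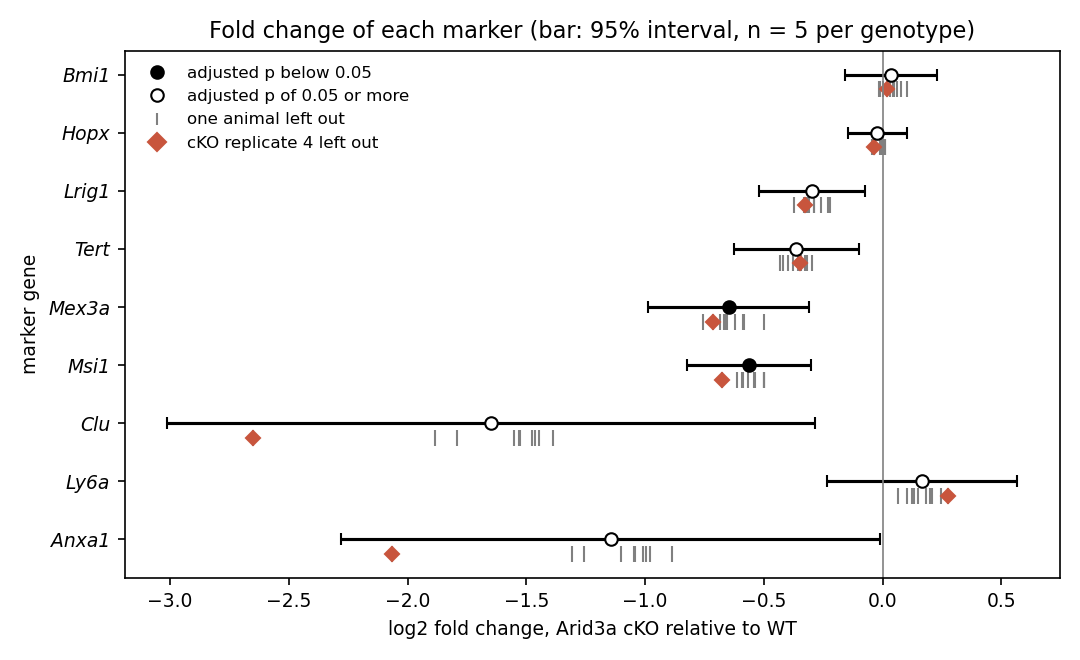
Log2 fold change of each marker in cKO relative to WT crypts. Circles are the fit on all 10 libraries, filled where the adjusted p is below 0.05. Bars of 1.96 SE are a normal approximation to an unadjusted 95% interval, narrower than the quasi-likelihood test implies. The Anxa1 bar ends just below 0, although its unadjusted p in that test was 0.0742. Grey ticks are the fits without 1 animal and red diamonds those without cKO replicate 4. Clu and Anxa1 moved to −2.65 and −2.07 without that animal, while Mex3a and Msi1 stayed between −0.76 and −0.50.

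Mex3a and Lrig1 also varied together among animals of 1 genotype. After the mean of each genotype was subtracted from log2 CPM, their Pearson r over the 10 libraries was 0.88 (exact permutation p = 0.000347 within genotypes, 0.0125 after Benjamini-Hochberg adjustment over the 36 pairs of markers) and Spearman's rho on ranks within genotypes was 0.95 (exact permutation p = 0.00125, adjusted 0.0450). Without the 2 libraries farthest from the median of Lrig1, r was 0.71. No other of the 36 pairs passed the adjusted threshold, although 28 of 36 coefficients were positive. The second strongest was Msi1 with Ly6a, which ran in opposite directions at r = −0.84 (exact permutation p = 0.00417, adjusted 0.0750; rho = −0.90, exact permutation p = 0.00431, adjusted 0.0775; r = −0.72 without the 2 libraries farthest in Msi1). These points share libraries, scaling and the mix of crypt cells.

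Promoter sequence from RefSeq is shown for this pair, and for Anxa1 as a marker of the regenerative group, as the 250 bases before the annotated start, 5′ to 3′ on the strand of the gene. Capitals mark matches to a GC box (GGGCGG, read on both strands) or a TATA box (TATAAA). On GRCm38.p6 these windows are chr3:88531696-88531945 (+) for Mex3a, chr6:94700146-94700395 (−) for Lrig1 and chr19:20390672-20390921 (−) for Anxa1. The RefSeq start of Mex3a lies upstream of the start of the GENCODE gene given above.
Mex3a: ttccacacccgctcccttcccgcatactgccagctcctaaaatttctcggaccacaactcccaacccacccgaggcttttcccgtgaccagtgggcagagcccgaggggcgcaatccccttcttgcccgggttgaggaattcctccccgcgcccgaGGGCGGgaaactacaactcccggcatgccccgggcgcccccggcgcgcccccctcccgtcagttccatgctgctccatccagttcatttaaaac
Lrig1: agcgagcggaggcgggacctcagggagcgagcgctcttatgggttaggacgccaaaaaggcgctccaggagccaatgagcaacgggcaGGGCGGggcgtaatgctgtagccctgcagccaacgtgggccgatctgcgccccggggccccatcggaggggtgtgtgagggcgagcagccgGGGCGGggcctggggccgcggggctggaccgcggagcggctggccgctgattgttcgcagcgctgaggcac
Anxa1: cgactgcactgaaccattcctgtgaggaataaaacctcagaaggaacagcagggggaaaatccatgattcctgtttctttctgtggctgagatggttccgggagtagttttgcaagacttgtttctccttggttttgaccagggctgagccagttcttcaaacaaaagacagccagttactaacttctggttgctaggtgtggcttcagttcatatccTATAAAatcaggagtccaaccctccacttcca
Mex3a has 1 GC box and Lrig1 has 2, while Anxa1 has none and carries a TATA box 32 to 27 bases before its start. The G+C content was 64.0%, 71.6% and 46.0%. Of 32851 promoter windows of the same length in the table, 32.7% hold a GC box and 12.4% a TATA box, so neither match is rare. Among the other markers with an entry, Bmi1 and Tert also have GC boxes and no TATA box, and the 2 Hopx entries have neither. The E2F letters TTTCCCGC, present in 0.895% of windows, occur in Mex3a, where they overlap its GC box. The other letters searched on both strands were CACGTG, found in Bmi1 and 1 Hopx entry and in 6.02% of windows, TTTGGCGC, found in the other Hopx entry and in 0.417%, GGAATG, found in Bmi1 and Anxa1 and in 12.6%, and CTTTGAT, found in none of these and in 3.21%. Msi1, Clu and Ly6a have no entry.

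The reserve markers can be read against the genes of the crypt base columnar cell. Of 15 such genes, 7 fell and 0 rose, with a median log2 fold change of −0.32, beside 12.7% lower and 15.6% higher over all tested genes. Only 3 of the 15 fell in the fits without WT replicate 3, WT replicate 4, cKO replicate 1, cKO replicate 3 or cKO replicate 5, each left out alone. The share of all tested genes called lower was also smaller in those fits, at 7.59% to 9.76%. Axin2, a WNT feedback gene, fell by 0.46 on the log2 scale, Olfm4, a secreted glycoprotein of these cells, by 0.50 and Tnfrsf19 by 0.89. Lgr5 itself had a WT level of 49.6 ± 18.7 CPM and a cKO level of 44.1 ± 8.45 CPM (SD, n = 5; log2 fold change −0.17 ± 0.258 SE, adjusted p = 0.653). The summed CPM of the 15 genes was highest in WT replicates 3 and 4, at 10217 and 9658, the same libraries that were highest in Lrig1, Mex3a and Msi1. Relative to the mean log2 CPM of the 15 genes, which was 0.34 lower in cKO crypts, Mex3a was 0.25 lower and Msi1 0.22 lower in the cKO as differences of genotype means, Lrig1 was 0.06 higher, Tert 0.01 higher, Bmi1 0.37 higher and Hopx 0.32 higher, each with overlapping ranges. This ratio was chosen after the data had been seen and was not tested.

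A further 9 genes described in reserve or label-retaining crypt cells gave a mixed picture, with 2 higher, 2 lower and a median log2 fold change of 0.07. Over all tested genes 15.6% were called higher and 12.7% lower. Cdkn1c, a cell cycle inhibitor, rose from 3.27 ± 0.463 to 4.97 ± 1.01 CPM (SD, n = 5; log2 fold change 0.60 ± 0.165 SE, adjusted p = 0.0177). Dclk1, a kinase expressed mainly in tuft cells, rose by 0.20 (adjusted p = 0.0350). Fgfbp1 fell by 0.47 on the log2 scale (adjusted p = 0.0184) and the NOTCH ligand Dll1 fell by 0.26 (adjusted p = 0.0296). For Sox9, a transcription factor of the crypt base, the fitted log2 difference was −0.37 (adjusted p = 0.0543). In TPM, with either pseudocount, 0 of the 9 were called higher and 1 lower.

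Among the partners and relatives of the reserve markers, every call in the reported fit was lower, beside 12.7% of all tested genes called lower. Of 15 other Polycomb repressive complex 1 genes 2 fell, the chromobox genes Cbx2 (−0.41, adjusted p = 0.00793) and Cbx7 (−0.32, adjusted p = 0.00882), and the median was −0.10. With library size only, 7 fell, where 27.4% of all tested genes were called lower. Of 13 tested genes of telomerase assembly and telomere protection 4 fell, with a median of −0.23. These were Tinf2, of the shelterin complex that covers telomeres (−0.30, adjusted p = 0.00558), Nhp2 (−0.45, adjusted p = 0.00941) and Dkc1 (−0.34, adjusted p = 0.0119), which bind the telomerase RNA, and the helicase Rtel1 (−0.29, adjusted p = 0.0157), and with library size only 10 fell. Nhp2 and Dkc1 also serve in the processing of ribosomal RNA. Of 6 relatives in the Lrig, Mex3 and Musashi families only Mex3d was called, with a WT level of 12.7 ± 1.27 CPM and a cKO level of 7.63 ± 1.18 CPM (SD, n = 5; log2 fold change −0.73 ± 0.117 SE, adjusted p = 0.00153), without overlap. For Msi2, the second Musashi gene, the fitted log2 difference was −0.08 (adjusted p = 0.588).

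The regenerative marker Clu (chr14:65968483-65981547, plus strand), clusterin, a secreted chaperone that marks the revival stem cell after irradiation, was the most variable of the 9. It measured 8.88, 4.30, 20.3, 19.4 and 24.5 CPM in WT and 2.29, 1.92, 2.45, 14.8 and 3.18 CPM in cKO crypts. In Clu, 4 cKO animals lay below every WT animal and cKO replicate 4 lay inside the WT range. The log2 fold change was −1.65 ± 0.696 (SE, adjusted p = 0.108, exact permutation p = 0.0317 before adjustment), so the difference did not pass the test on all 10 libraries. Without cKO replicate 4 the cKO mean was 2.46 ± 0.529 CPM (SD, n = 4). The log2 fold change was then −2.65 ± 0.512 (SE, adjusted p = 0.0102), where 9.78% of tested genes were called lower. That animal was singled out for its high Clu, so its omission enlarges the difference and is no independent test. The biological coefficient of variation of Clu was 72.3%, higher than in 98.5% of tested genes. Of the 4 pairs of animals with the same identifier stem, WT replicates 2 and 3 (4.30 and 20.3 CPM) and cKO replicates 4 and 5 (14.8 and 3.18 CPM) lay far apart, while WT replicates 4 and 5 (19.4 and 24.5 CPM) and cKO replicates 1 and 2 (2.29 and 1.92 CPM) lay close together.

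Anxa1 (chr19:20373428-20390944, minus strand), a phospholipid-binding annexin of the fetal-like state, showed the same arrangement at lower counts. Its level was 3.66, 1.41, 3.02, 1.81 and 3.60 CPM in WT and 0.270, 0.590, 0.874, 3.50 and 0.833 CPM in cKO crypts. The 4 low cKO animals were below every WT animal, and cKO replicate 4 lay near the top of the WT range. Over all libraries the log2 fold change was −1.14 ± 0.579 (SE, adjusted p = 0.163, exact permutation p = 0.0476 before adjustment). Without cKO replicate 4 it was −2.07 ± 0.391 (SE, adjusted p = 0.00564). This omission too was singled out on the values compared and is no independent test. Its biological coefficient of variation of 62.1% was above that of 97.9% of tested genes.

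The library of cKO replicate 4 also had the highest stromal marker sum. The summed level of 9 stromal markers (Col1a1, Col1a2, Col3a1, Pdgfra, Dcn, Lum, Acta2, Myh11 and Des, all detected) was 135 CPM there, 9.10 to 23.7 CPM in the other cKO libraries and 10.6 to 84.3 CPM in WT. The summed level of 11 immune markers was 186 CPM in cKO replicate 4, 52.5 to 119 CPM in the other cKO and 98.2 to 197 CPM in WT libraries. Of 9 stromal genes 1 fell, Acta2 (−1.59, adjusted p = 0.0455), and 1 of 11 immune genes, Jchain of plasma cells (−1.95, adjusted p = 0.00196), and none of either list rose. Over all tested genes 12.7% were called lower and 15.6% higher. Without cKO replicate 4, the fit in which Clu and Anxa1 passed, 4 of 9 stromal and 3 of 11 immune genes fell, where 9.78% of all tested genes were called lower. Anxa1 was 3.02 to 3.66 CPM in the 4 libraries with the highest stromal sums, 63.8 to 135 CPM, and at most 1.81 CPM in the other 6. Clu did not follow the stromal sum in WT replicate 4, which had 19.4 CPM of Clu with the lowest WT stromal sum of 10.6 CPM. The part of stromal and immune RNA in the differences of Clu and Anxa1 was not tested.

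**Figure D4:**
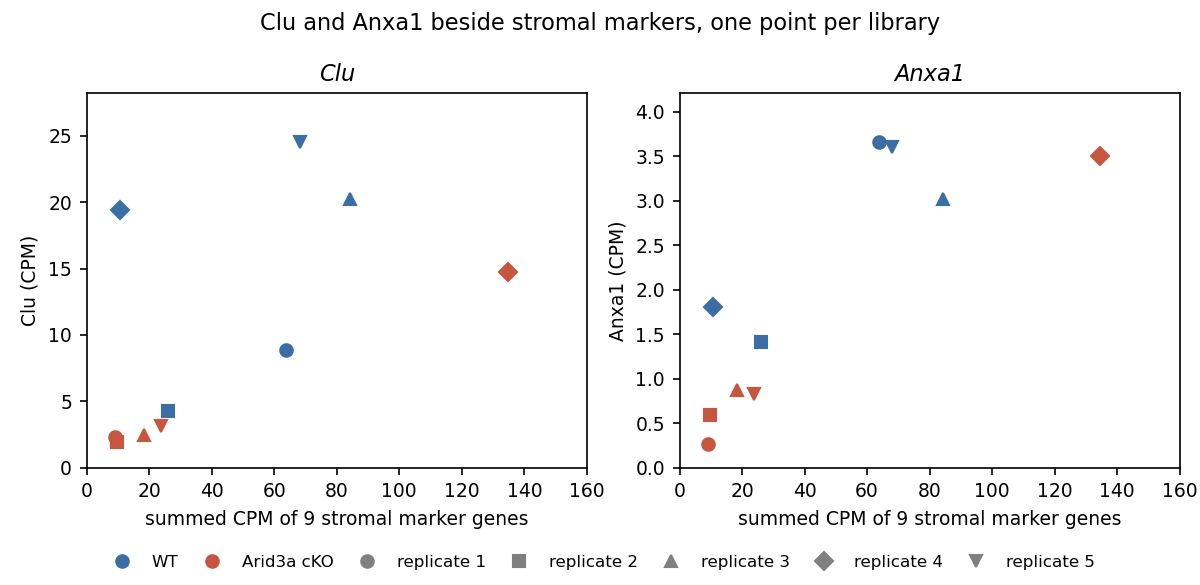
Clu (left) and Anxa1 (right) in CPM against the summed CPM of 9 stromal marker genes, 1 point per library. Colours give the genotype and symbols the replicate number. The cKO animal at a stromal sum of 135 CPM is replicate 4, and WT replicate 4 combines 19.4 CPM of Clu with a stromal sum of 10.6 CPM.

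Ly6a (chr15:74994877-74998031, minus strand), whose protein SCA1 is the usual marker of the fetal-like state, was close to its WT level in unirradiated cKO crypts. It measured 2.19, 2.0, 1.63, 1.57 and 1.64 CPM in WT and 2.59, 1.81, 1.96, 1.39 and 2.38 CPM in cKO crypts. The cKO animals of replicates 1 and 5 lay above the WT range and replicate 4 below it. The log2 fold change was 0.17 ± 0.204 (SE, adjusted p = 0.570, 95% interval −0.23 to 0.57), and in none of the 22 alternative fits did it pass the threshold. Its counts were whole numbers in all 10 libraries, to within 0.005, so no fractional read was assigned to it. Of 15 other genes of the Ly6 cluster found in the annotation, 3 had enough reads to be tested and 0 were called, among them Ly6e with WT and cKO means of 165 and 203 CPM (adjusted p = 0.198).

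Interferon-stimulated genes, a class to which Ly6a belongs in many cells, rose in part in the same crypts. Of 28 such genes 13 rose and 1 fell, with a median log2 fold change of 0.44, beside 15.6% higher and 12.7% lower over all tested genes. The summed level of the 28 overlapped between genotypes, at 604 to 990 CPM in WT and 539 to 905 CPM in cKO libraries. This sum gives most weight to abundant genes. Cd74, the most abundant of the 28, had a WT mean of 280 CPM and a cKO mean of 139 CPM, without overlap (adjusted p = 0.0510). The gene that fell was Ciita (−1.01, adjusted p = 0.0245). Ifit1 rose from 2.39 ± 1.30 to 13.8 ± 5.38 CPM (SD, n = 5; log2 fold change 2.53 ± 0.415 SE, adjusted p = 0.00277), and Rsad2 (2.04), Usp18 (1.59) and Oasl2 (1.33) rose on the log2 scale without overlap between genotypes. Ly6a was not among the genes that passed.

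Of 24 other genes of the regenerative or fetal-like state 20 had enough reads. Of these 20, 4 fell and 1 rose, with a median log2 fold change of −0.59, beside 12.7% lower and 15.6% higher over all tested genes. With library size only 10 fell and 1 rose, where 27.4% of all tested genes were called lower. Without WT replicate 3 or cKO replicate 3 the number that fell was 2, where 9.14% and 9.76% of tested genes were called lower. The number that rose was 0 when WT replicate 3, 4 or 5 or cKO replicate 1, 2, 4 or 5 was left out. Krt7, a keratin, fell from 93.2 ± 14.2 to 61.8 ± 3.17 CPM (SD, n = 5; log2 fold change −0.59 ± 0.0949 SE, adjusted p = 0.00155) without overlap. The YAP target Cyr61 (−0.72, adjusted p = 0.0180), the annexin Anxa3 (−0.70, adjusted p = 0.0277) and the urokinase receptor gene Plaur (−1.08, adjusted p = 0.0408) fell as well. Cyr61 did so without overlap between genotypes. Ranges overlapped for Anxa3 (WT and cKO means 4.04 and 2.48 CPM) and for Plaur, whose means were low at 0.975 and 0.457 CPM. Il33, an alarmin cytokine, rose from 4.58 ± 1.71 to 10.5 ± 4.15 CPM (SD, n = 5; log2 fold change 1.19 ± 0.356 SE, adjusted p = 0.0306). Of 11 other annexins, Anxa13 (0.67, adjusted p = 0.0105) and Anxa7 (0.24, adjusted p = 0.00866) rose and Anxa3 fell, so that the family showed no common direction, with a median of −0.21.

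**Figure D5:**
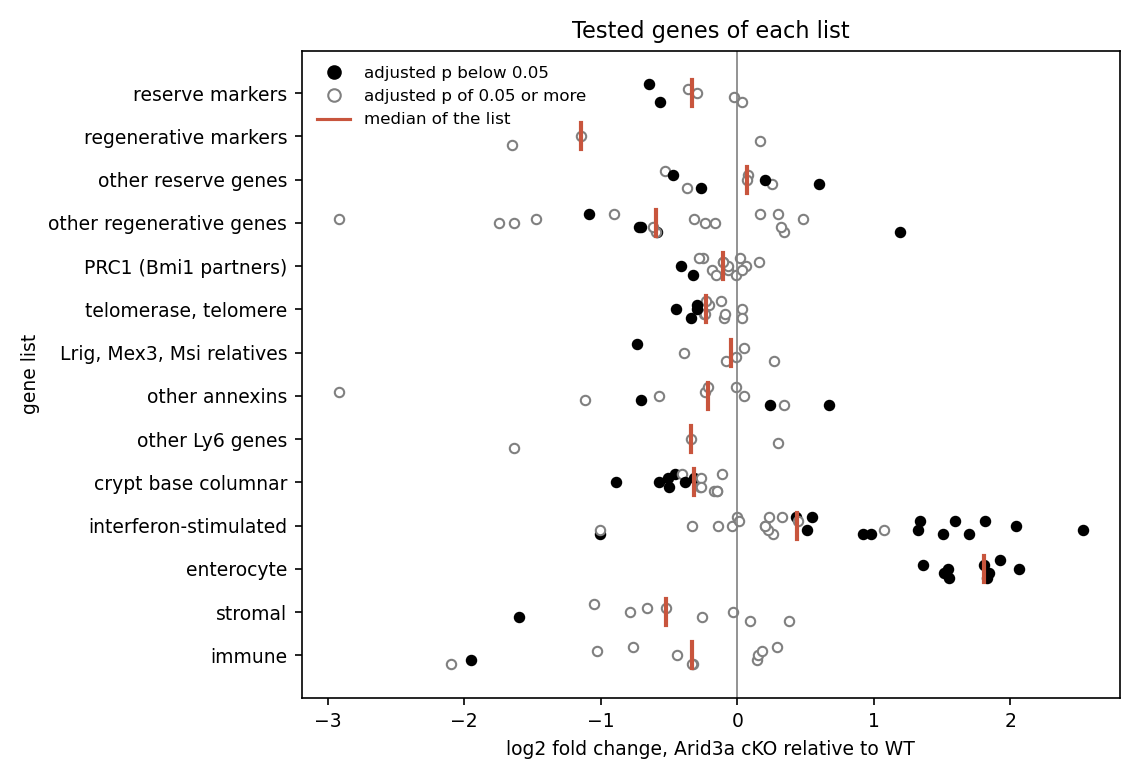
Log2 fold change in cKO relative to WT crypts for the tested genes of each list, 1 point per gene, filled where the adjusted p is below 0.05, with the median of the list as a red line. The reserve markers run from −0.65 to 0.03 with a median of −0.33. The crypt base columnar genes have a median of −0.32 and all lie below 0, while the enterocyte genes all lie above 1.

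RNA of mature cells also differed between the genotypes. All 9 enterocyte markers rose, by a median of 1.80 on the log2 scale and with summed levels of 1684 to 7578 CPM in WT and 9498 to 17032 CPM in cKO libraries. Without single animals 4 to 9 of them passed, with 4 without cKO replicate 5 (and 4 with no filter on low counts) and 6 without WT replicate 3, WT replicate 5 or cKO replicate 4. WT replicates 3 and 4, highest in Lrig1 and Msi1, had the lowest enterocyte sums, 2673 and 1684 CPM. Of 5 Paneth cell markers 4 fell, with a median of −0.68. In the reported fit 15.6% of all tested genes were called higher and 12.7% lower. The part of these differences in the falls of Mex3a and Msi1 was not tested.

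For each marker the genes most like it were sought among 10471 tested genes with a mean of at least 5 CPM, by Pearson r of log2 CPM over the 10 libraries after subtraction of each genotype's mean. Anxa1 was most like Sparc, Col1a2 and Fn1 (r = 0.94, 0.92 and 0.91), of which Col1a2 is in the stromal list. Among the 3 genes most like Clu were Zfhx2 and Fam234b (0.95 and 0.95), and Ly6a was most like Cnnm4, Nfyc and Myo7a (0.96, 0.92 and 0.91). For the reserve marker Lrig1 they included Actn1 and Il1rap (0.98 and 0.98), while Mex3a was most like Kbtbd7, Rai14 and Arhgap39 (0.96, 0.96 and 0.95) and Msi1 like Llgl1, Wnk4 and Man2b1 (0.97, 0.95 and 0.94). Those of Bmi1 included Zfp759 and Tmem237 (0.90 and 0.90), while Hopx was most like Fbxo45, Gnb1l and Ttc32 (0.95, 0.91 and 0.91) and Tert like Mynn, Papolg and Gigyf2 (0.90, 0.90 and 0.90). The coefficients are descriptions over 10 libraries, picked as the highest of many.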

How the data were processed

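Jejunal crypts of 10 mice were sequenced as polyadenylated RNA. The authors aligned reads to GRCm38 with STAR and estimated the expected count and the TPM of each gene with RSEM (nf-core/rnaseq), and they deposited both per library, leaving the expected counts unnormalized between libraries. The effective gene length of the same deposited files was used as an offset in 1 alternative. The strand setting is not given in the sources used here.

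Expected counts were rounded and tested in R 4.3.3 with edgeR 4.0.16 (filterByExpr with a minimum count of 10 and a minimum total of 15, TMM, robust quasi-likelihood test, Benjamini-Hochberg adjustment, threshold 0.05). Standard errors belong to the fitted log2 fold changes. The 95% intervals are 1.96 SE to each side, a normal approximation, and are narrower than the quasi-likelihood test implies. Two-sided exact permutation tests of single genes used log2(CPM + 0.5). At these totals a gene at 1 CPM has fewer than 32 counts, so the rarest markers carry counting error as well as animal variation. Alternatives were RLE factors, library size only, DESeq2 1.42.0, limma-voom (limma 3.58.1), no filter, at least 10 counts in every library, unrounded counts, effective length, limma on log2(TPM + 0.1) and log2(TPM + 1), the replicate number as a block, the identifier stem as a random block, and leaving out each animal. The scripts were tested on simulated data.

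Named genes were the 9 markers, Arid3a, up to 4 called genes with the smallest adjusted p in each of 17 lists written by hand with Lgr5, Olfm4 and Sox9, and the 3 genes most like each marker, of which some are not reported here. Genes outside this rule were named after their values were seen: Plaur, Msi2, Ly6e, Hopxos, Slc25a26, Cd74, Ciita and the full stromal list. Markers and lists were chosen with earlier results of these data known. Positions are from GENCODE M21 and RefSeq on GRCm38.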

Additional observations from a re-analysis of the deposited data

Results flagged for a closer look

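Levels of the markers, of the summed lists and of the other genes named in the report were examined in 176 groups of 5 animals. Cd74, Ciita and the genes named only for their likeness to a marker were left out. A group was flagged for a value far from the rest, meaning a gap to the nearest value above 0.71 of the range of the group. Chance alone gives about 1 such group in 20 where groups are independent and chosen beforehand. Here some sums contain single genes that were also examined, and Plaur and the stromal genes were added after their values were seen. No comparison with chance is therefore drawn. The groups flagged were 10 of 176. Of these, 9 concern cKO replicate 4, which stood above the other cKO animals in Clu (14.8 CPM), in Anxa1 (3.50 CPM), in the sum of the 3 regenerative markers, which is mostly Clu (19.7 CPM), in the sum of the 9 stromal markers (135 CPM), in 4 of these genes, namely Col1a1 (17.2 CPM), Col1a2 (24.1 CPM), Col3a1 (66.1 CPM) and Pdgfra (1.94 CPM), and in Plaur (0.782 CPM). The other is Anxa13, an annexin of epithelial cells, in cKO replicate 5 (247 CPM).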

How the results depend on the processing

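Mex3a and Msi1 were called lower in all 22 alternatives, and no marker was called higher in any. The number of markers called was 2 in the reported fit, 4 with library size only, 4 in TPM with a pseudocount of 0.1, 5 with a pseudocount of 1, 4 with the identifier stem as a random block, and 2 to 4 when single animals were left out (4 without WT replicate 2 and 4 without cKO replicate 4). Markers added in these fits were Lrig1 (library size, both TPM fits, effective length, without WT replicate 2), Tert (library size, TPM + 1, stem block, without WT replicate 2, without cKO replicate 5), Anxa1 (both TPM fits, stem block, without cKO replicate 4) and Clu (without cKO replicate 4), all lower. The correlation within stems was estimated as −0.0641, below 0, so the stem block was not a stricter test of these markers. From limma-voom without the block to the fit with it, the SE went from 0.133 to 0.129 for Tert and from 0.537 to 0.523 for Anxa1. Their adjusted p went from 0.0553 to 0.0486 and from 0.0508 to 0.0441. Library size only and TPM + 0.1 moved the median over all tested genes from −0.03 to −0.16 and −0.13 (log2). The split of calls moved with them: 2298 genes were higher and 1869 lower in the reported fit, 1541 and 4030 with library size only, 1399 and 2742 in TPM + 0.1, and 1411 and 2760 in TPM + 1. The sign of Bmi1 turned with library size only (−0.10), effective length (−0.036), TPM + 0.1 (−0.14), TPM + 1 (−0.13), and without WT replicate 2 or cKO replicate 2, where single animals left out gave −0.014 to 0.10. Hopx turned without WT replicate 5, cKO replicate 1 or cKO replicate 5, where single animals left out gave −0.044 to 0.0085. Without single animals, 3007 to 4684 genes were called, 1760 to 2572 higher and 1131 to 2112 lower, with the fewest lower calls without WT replicate 4. Anxa1 did not pass the filter of 10 counts in every library. Of 374 counts of called list genes under alternatives, 282 were within 1.5 times the reported count.

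The replicate numbers did not pair the animals (correlation of deviations of same-numbered animals −0.21 to 0.09). With the replicate number as a block, 3052 genes were called, 1191 of them lower, and 3 markers, the third being Clu (−1.89, adjusted p = 0.0466). The causes of these changes were not tested. Depth limits the precision of markers with few counts, which reached 8 per library in Anxa1 and 41 in Ly6a.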

Other observations

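Markers of rarer secretory cells, which can act as facultative stem cells after injury, differed as well. In the reported fit 15.6% of all tested genes were called higher and 12.7% lower. Of 8 tested tuft cell genes 5 rose and 0 fell, with a median of 0.27 (log2), whereas 2 rose with library size only, with effective length, with no filter, in both TPM fits, and without cKO replicate 1 or cKO replicate 3, and 3 without WT replicate 3, WT replicate 4, cKO replicate 2 or cKO replicate 4. The tuft sum was 110 to 121 CPM in WT and 136 to 150 CPM in cKO libraries. Rgs13, a regulator of G protein signalling, rose from 11.0 ± 1.29 to 17.9 ± 2.47 CPM (SD, n = 5; log2 fold change 0.70 ± 0.113 SE, adjusted p = 0.00155). Of 10 enteroendocrine genes 2 rose, the granins Chgb (0.43, adjusted p = 0.0130) and Chga (0.42, adjusted p = 0.0486), and 0 fell, whereas with library size only 0 rose and 1 fell. The enteroendocrine sum was 692 CPM in cKO replicate 4 and 458 to 534 CPM in the other cKO libraries, beside 354 to 431 CPM in WT. Of 7 goblet cell genes 1 fell, the transcription factor Spdef (−0.47, adjusted p = 0.00352). Both tested endothelial genes fell, Pecam1 by 1.19 and Plvap by 1.89 on the log2 scale, at levels below 3 CPM.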
